A study of Mus musculus with 12 samples.

Results

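The TCRβ repertoires of tumor-infiltrating CD8+ T cells (CD8+ TILs) were compared with those of splenic CD27hi CX3CR1- CD8+ T cells, the most diverse splenic subset of the study, in 6 of the 12 libraries. The 3 TIL libraries and the 3 CD27hi CX3CR1- libraries were chosen by the cell type in the sample labels and paired by the code that the libraries of an experiment share (experiments A, B and C). Only productive rearrangements entered, which are in frame and carry no stop codon, and there were 5082 of them in the TILs and 135259 in the CD27hi CX3CR1- cells. All mice were female C57BL/6 mice bearing MC38, a mouse colon adenocarcinoma line, and every group, the splenic cells included, came from mice given anti-CTLA-4 and anti-PD-L1 antibody. Mice were pooled within an experiment, and each experiment counted as 1 replicate (n = 3). The splenic cells were flow-sorted as CD45+ CD3+ CD8+ cells by CD27 and CX3CR1 (the labels write CD27hiCX3CR1lo), while the TILs were taken from the tumor by positive selection on CD8a beads, so that tissue and isolation method cannot be told apart. The data are rearranged genes in genomic DNA, so that the labelled cell types could not be checked against marker genes.

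A TCR β chain is assembled in the thymus from a V, a D and a J gene segment, with bases trimmed from the segment ends and untemplated (N) bases added between them. The joined stretch encodes the complementarity-determining region 3 (CDR3), which lies over the peptide in the peptide-MHC complex, while the V gene also encodes the loops that mostly touch the MHC. T cells that descend from the same cell share their rearrangement, so that a rearrangement counted in many templates marks an expanded clone. CD27 is a costimulatory receptor kept by naive and memory T cells, and CX3CR1 is a chemokine receptor of effector-differentiated CD8+ T cells.

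In this assay a template is an estimate of 1 cell that carried the rearrangement. Experiments A, B and C gave 53946, 49116 and 71574 templates of productive rearrangements in the CD27hi CX3CR1- cells and 5893, 12388 and 20951 in the TILs, so that the spleen was sampled 9.15, 3.96 and 3.42 times as deeply. A count of 0 allowed a share of up to 0.0509%, 0.0242% and 0.0143% of TIL templates (3 templates), and of 0.00419% to 0.00611% in the CD27hi CX3CR1- cells. At an equal depth of 5893 templates the CD27hi CX3CR1- libraries held between 5699 and 5754 distinct rearrangements and the TILs 1359, 996 and 1012. Clones of 100 or more templates numbered 9, 26 and 36 in the TILs, holding 39.5%, 51.7% and 56.7% of templates, and there were none in the CD27hi CX3CR1- libraries. The 2 groups did not overlap in any of these measures. Two-sided exact sign-flip tests of 3 pairs cannot give a p under 0.25, so that single values per library are given with their spread. Confidence intervals are Wilson 95% intervals and, like the limits, cover counting error only.

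The largest TIL clones are shown first because they are what the same experiment's diverse splenic cells were searched for. Each sequence runs 5′ to 3′ from the codon of the first CDR3 residue to the end of the deposited sequence, just before the codon of the last residue, and capitals mark the bases between the V and J segments (the D segment and N additions).
TIL A, TCRBV19-01 with TCRBJ02-01, 15 residues: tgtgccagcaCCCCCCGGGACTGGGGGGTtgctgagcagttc
TIL B, TCRBV12-01 with TCRBJ02-05, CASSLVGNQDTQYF: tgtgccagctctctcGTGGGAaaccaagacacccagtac
TIL C, TCRBV01-01 with TCRBJ02-07, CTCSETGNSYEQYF: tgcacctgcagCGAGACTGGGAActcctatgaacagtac
The first held 801 of 5893 templates in the TILs of experiment A (13.6%, 95% interval 12.7% to 14.5%) and 2 templates (0.00371%) in the CD27hi CX3CR1- cells. The second held 921 templates in the TILs of experiment B (7.43%) and 1 template in the CD27hi CX3CR1- cells, and the third 2091 templates in the TILs of experiment C (9.98%) and 3 templates in the spleen. Each of these clones was read in the diverse splenic subset of its own experiment, at 3 templates or fewer. In the CX3CR1+ cells of the same experiment they held 404, 221 and 848 templates (0.724%, 0.433% and 0.746%). Whether such low counts came from cells sorted into the wrong subset was not tested, here or for the shared clones below.

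The clones that ranked next in the TILs were not all found in the CD27hi CX3CR1- cells. In experiment A, a 15-residue TCRBV17-01 with TCRBJ02-02 clone (417 templates, 7.08%) and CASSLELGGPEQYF (TCRBV16-01, 225 templates, 3.82%) had no template in the CD27hi CX3CR1- cells, at least 1272-fold and 687-fold higher shares than the limit of 3 templates allows there. In experiment B, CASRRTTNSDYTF (TCRBV29-01, 494 templates) and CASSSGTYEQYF (TCRBV04-01, 441 templates) had 3 and 2 templates in the spleen. The clones ranked second and next after it in experiment C shared the gene TCRBV13-01 and differed by 1 base over the 87 bases deposited.
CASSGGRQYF: tgtgccagcagtgGGGGGAGGcagtac
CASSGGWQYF: tgtgccagcagtgGGGGGTGGcagtac
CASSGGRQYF held 871 TIL templates (4.16%), with 3 in the CD27hi CX3CR1- cells, 6 in the CD27lo CX3CR1- cells and 3439 in the CX3CR1+ splenic cells of that experiment. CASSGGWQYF held 639 TIL templates (3.05%), with none in the CD27hi CX3CR1- or CX3CR1+ cells and 4 in the CD27lo CX3CR1- cells. The near-identical pair thus differed in where it was found in the spleen. Neither was assigned a J gene, and rearrangements with no J gene held 7.28% of templates in the TILs of experiment C against 0.0170% and 0.0323% in the other TIL libraries and 0.102% to 0.126% in the CD27hi CX3CR1- libraries. Those templates are absent from every J and V-J share.

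The clones that led the CD27hi CX3CR1- libraries were small. In experiment A they were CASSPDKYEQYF (TCRBV12-02, 26 templates) and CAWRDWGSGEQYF (TCRBV31-01, 25 templates), and neither was found in the TILs. In experiment B, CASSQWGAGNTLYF (TCRBV05-01 with TCRBJ01-03) stood apart at 93 templates (0.189%), and it held 179 templates (1.44%) in the TILs and 17.5% of templates in the CX3CR1+ cells. In experiment C, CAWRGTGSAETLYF (TCRBV31-01 with TCRBJ02-03, 27 templates) and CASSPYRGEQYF (TCRBV12-02, 16 templates) held 61 and 65 templates in the TILs and 6.33% and 0.611% of templates in the CX3CR1+ cells. All 5 were thus also found in the CX3CR1+ library of their experiment, where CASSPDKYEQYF held 1.83% and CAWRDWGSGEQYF 0.384%. The second clone of experiment B encoded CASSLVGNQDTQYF with 19 templates, in a nucleotide form that was not read in its TILs and that held 158 and 354 templates in the TILs of experiments A and C. Other clones high in the spleen and shared with the TILs were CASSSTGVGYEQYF and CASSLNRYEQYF in experiment A (18 and 14 splenic templates, 4 TIL templates each), and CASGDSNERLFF and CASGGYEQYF in experiment B (14 splenic templates each, 90 and 19 TIL templates).

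V gene use was compared first with every distinct rearrangement counted once, which weighs clones equally whatever their size. TCRBV12-01 (Trbv12-1, a V segment at chr6:41113567-41114067 of GRCm38.p6) made up 8.56%, 8.32% and 8.84% of rearrangements in the CD27hi CX3CR1- cells and 4.49%, 6.46% and 6.72% in the TILs. Every TIL library lay below every CD27hi CX3CR1- library. It was lower in the TILs by a log2 fold change of -0.54 (within-experiment log2 ratios -0.56 ± 0.32, SD, n = 3; edgeR quasi-likelihood test, adjusted p = 0.0335). It was the only one of 25 V genes past the threshold of 0.05 (4%), and 4 passed unadjusted. Its call was lost without any 1 experiment (adjusted p = 0.0860, 0.351 and 0.168 without A, B and C) narrowly under TMM scaling (adjusted p = 0.0533) and among rearrangements with 2 or more templates (adjusted p = 0.121), with the direction kept in each. In DESeq2 it passed (adjusted p = 0.00252). By template TCRBV12-01 was not lower: it held 8.67%, 8.47% and 8.81% in the spleen and 5.91%, 13.6% and 9.39% in the TILs. That was higher in 2 of 3 experiments (log2 fold change 0.075, edgeR adjusted p = 0.972). The neighbouring TCRBV12-02, of the same family, was at 5.68% to 5.72% in the CD27hi CX3CR1- cells and 3.16%, 4.97% and 5.71% in the TILs, and the groups overlapped.

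The genes TCRBV19-01, TCRBV05-01 and TCRBV31-01 were higher in the TILs in all 3 experiments without passing the threshold, each with an adjusted p of 0.0828. TCRBV19-01 made up 7.26%, 7.36% and 7.48% of rearrangements in the CD27hi CX3CR1- cells and 9.20%, 9.30% and 10.6% in the TILs (log2 fold change 0.40). TCRBV05-01 was at 4.68%, 4.52% and 4.74% against 6.92%, 6.33% and 5.43% (0.41), and TCRBV31-01 at 2.21%, 2.12% and 2.05% against 4.49%, 2.39% and 2.53% (0.52). In these genes too the groups did not overlap, as in 8 of the 25. TCRBV13-02, the V gene most used in the CD27hi CX3CR1- cells (8.96% ± 0.190, SD, n = 3), was at 8.71% ± 1.38 in the TILs.

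Weighted by templates, the V genes of the TILs spread far more between experiments. Here 2 of 25 V genes passed (8%), both lower in the TILs, and the median log2 fold change over all 25 was -0.49. TCRBV30-01 (Trbv30, chr6:41281376-41281990) held 0.298%, 0.289% and 0.291% of templates in the CD27hi CX3CR1- cells and 0.0509%, 0.0404% and 0.0143% in the TILs, 8.32-fold lower by the means (log2 fold change -3.24, adjusted p = 0.00104). These were 3, 5 and 3 templates, and the largest TIL clones with this gene, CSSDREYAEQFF, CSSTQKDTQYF and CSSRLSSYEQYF, held 1, 1 and 2. The call by template was lost in DESeq2 (adjusted p = 0.113). By unique rearrangement TCRBV30-01 was at 0.303%, 0.297% and 0.295% in the spleen and 0.221%, 0.323% and 0.0920% in the TILs. The groups overlapped in that count (edgeR adjusted p = 0.513). TCRBV10-01 (Trbv10, annotated as a V segment pseudogene) held 0.0352%, 0.0122% and 0.0279% of templates in the spleen and no template in the TILs (adjusted p = 0.0286 by edgeR, lost in DESeq2 at 0.596, with all 12 libraries at 0.10 and without experiment B at 0.119). Its splenic share in experiments A and B was below what the TIL depth could show, so no fold is given. Both are rarely used genes, in contrast to TCRBV17-01, at 2.93%, 2.76% and 2.75% in the spleen and 8.89%, 6.34% and 4.59% in the TILs (log2 fold change 1.18, adjusted p = 0.151). TCRBV19-01 held 20.5%, 7.26% and 9.78% of TIL templates against 7.22% to 7.34% in the spleen (adjusted p = 0.521), so that its share was near the splenic one in experiment B.

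**Figure D1:**
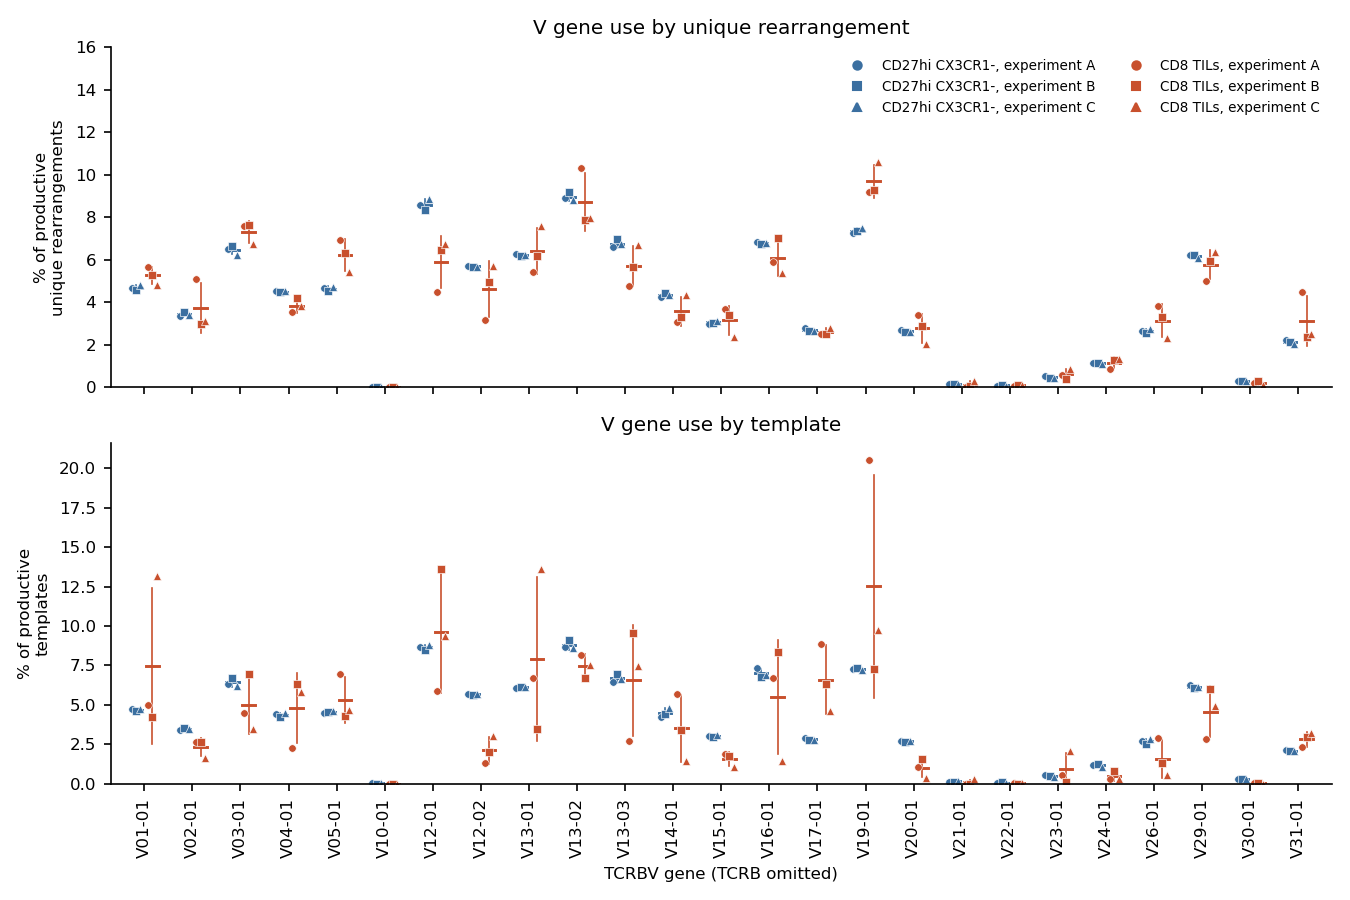
Share of each of 25 V genes in percent of productive unique rearrangements (top) and of productive templates (bottom), with 1 point per library, the mean of each group as a short bar and its SD as a vertical line (n = 3). TCRBV12-01 sits at 4.49% to 6.72% in the TILs below 8.32% to 8.84% in the CD27hi CX3CR1- cells in the top panel, and the TIL points spread up to 20.5% in the bottom one.

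J gene use differed by small amounts and in opposite directions within the same gene cluster. By unique rearrangement 3 of 12 J genes passed (25%). TCRBJ01-02 (Trbj1-2, a J segment at chr6:41534001-41534048) was at 7.42%, 6.99% and 7.48% in the CD27hi CX3CR1- cells and 6.26%, 5.49% and 5.87% in the TILs (log2 fold change -0.32, adjusted p = 0.0278 by edgeR). TCRBJ01-06 (Trbj1-6, chr6:41535554-41535606) was at 2.81%, 2.80% and 2.54% against 3.83%, 3.10% and 3.42% (0.35, adjusted p = 0.0391). TCRBJ02-01 (Trbj2-1, chr6:41542754-41542803) was at 12.4%, 12.2% and 12.5% against 13.1%, 14.7% and 15.0% (0.21, adjusted p = 0.0307). In all 3 genes the groups did not overlap, as in 4 of the 12 J genes (33.3%). Without experiment B or without experiment C no J gene passed, and without experiment A 2 did. TCRBJ01-02 also lost its call at equal depth (adjusted p = 0.162) and turned to 0.15 (adjusted p = 0.448) among rearrangements with 2 or more templates, while single-template rearrangements alone gave -0.53 (adjusted p = 0.0137). TCRBJ01-06 lost its call in DESeq2 (adjusted p = 0.519), among single-template rearrangements (0.0812) and with amino acid clonotypes (0.0606). TCRBJ02-01 lost it among single-template rearrangements (log2 fold change 0.035, adjusted p = 0.846) and with amino acid clonotypes (adjusted p = 0.10).

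By template no J gene passed (0%) in edgeR, with 3 unadjusted and 1 by DESeq2. TCRBJ02-01 again held more in the TILs, at 30.7%, 11.5% and 24.3% of templates against 10.8%, 10.4% and 10.7% (log2 fold change 0.95, adjusted p = 0.107). TCRBJ01-06, higher by unique rearrangement, was lower by template, at 1.93%, 1.31% and 0.875% in the TILs against 2.26%, 2.25% and 1.99%. The groups did not overlap (log2 fold change -0.73, edgeR adjusted p = 0.148). The TCRBJ01 cluster as a whole held 33.0%, 33.5% and 32.7% of templates in the CD27hi CX3CR1- cells and 18.7%, 24.4% and 24.0% in the TILs, a difference of -10.7 ± 3.12 percentage points (SD, n = 3; two-sided exact sign-flip p = 0.25, the smallest possible). TCRBJ02-07, the J gene most used by either group, took 22.3% ± 0.442 of rearrangements but 30.8% ± 0.660 of templates in the CD27hi CX3CR1- cells. In the TILs it took 21.1% ± 1.59 and 28.9% ± 5.58.

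**Figure D2:**
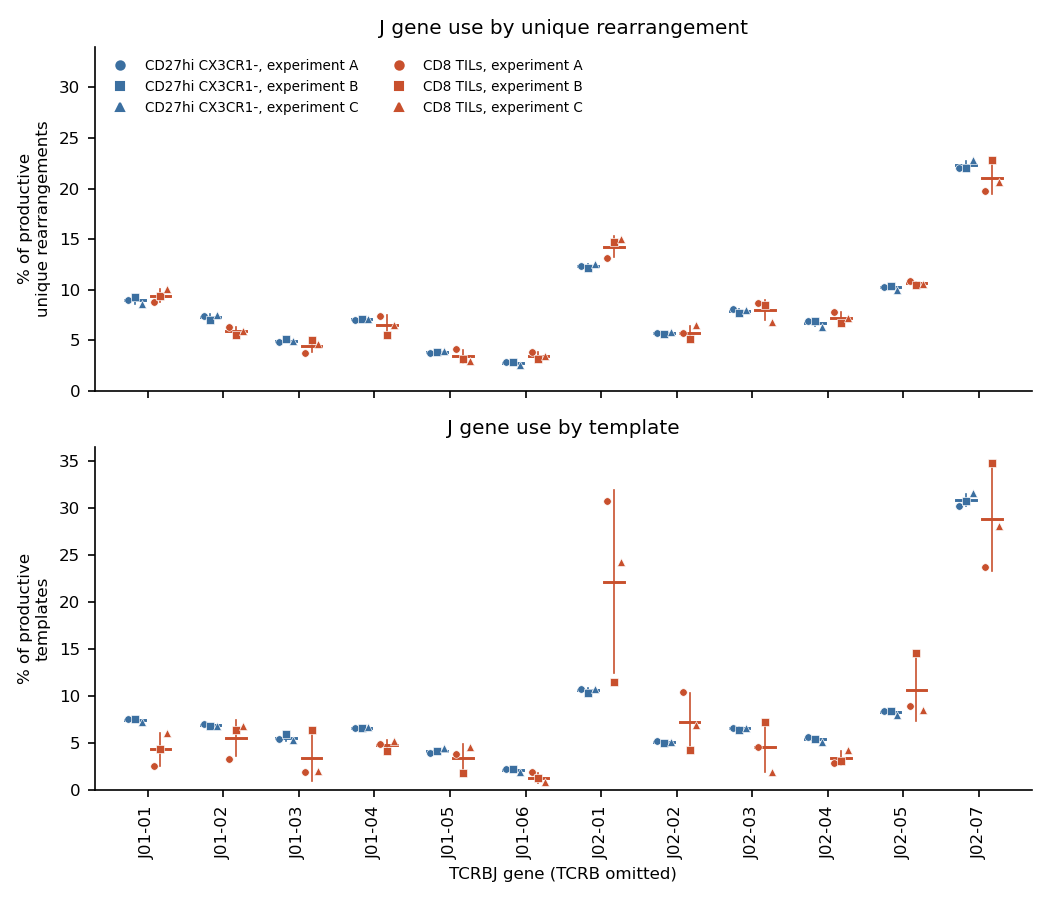
Share of each of 12 J genes in percent of productive unique rearrangements (top) and of productive templates (bottom), with points for libraries, short bars for group means and vertical lines for the SD (n = 3). TCRBJ02-01 is higher in every TIL library in both panels, with 30.7%, 11.5% and 24.3% of templates against 10.4% to 10.8%.

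Among 243 V-J pairs tested by unique rearrangement, 5 passed (2.06%), 3 higher and 2 lower in the TILs. The pair of TCRBV19-01 with TCRBJ02-01 stood far from the others. It was carried by 403, 377 and 541 rearrangements in the CD27hi CX3CR1- cells (0.947%, 0.993% and 0.991%) and by 31, 55 and 80 in the TILs (2.28%, 3.56% and 3.70%). The means differed 3.26-fold and every TIL library lay above every splenic one (log2 fold change 1.72, within-experiment log2 ratios 1.67 ± 0.35, SD, n = 3; edgeR adjusted p = 1.35e-17). The groups did not overlap in 72 of the 243 pairs (29.6%). TCRBV19-01 with TCRBJ02-01 passed under all 13 alternative settings, with adjusted p from 4.49e-29 to 0.0128, which included single-template rearrangements alone (log2 fold change 1.13). Among rearrangements with 2 or more templates the log2 fold change was 3.30.

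The other pairs rested on fewer TIL rearrangements. TCRBV31-01 with TCRBJ02-03 was carried by 10, 4 and 9 TIL rearrangements (0.736%, 0.259% and 0.416%, against 0.146%, 0.153% and 0.165% in the spleen; log2 fold change 1.55, adjusted p = 0.0310). TCRBV05-01 with TCRBJ01-01 was carried by 15, 16 and 14 (1.10%, 1.03% and 0.648%, against 0.491%, 0.448% and 0.440%; 0.97, adjusted p = 0.0310). Both lower pairs contained TCRBV12-01. With TCRBJ02-03 it fell from 0.766%, 0.650% and 0.775% to 0.0736%, 0.323% and 0.324% (log2 fold change -1.52, adjusted p = 0.00630), and with TCRBJ01-02 from 0.857%, 0.895% and 0.971% to 0.442%, 0.323% and 0.370% (-1.29, adjusted p = 0.00645). None of these 4 passed in DESeq2 (adjusted p = 0.198 each) or without experiment B (adjusted p from 0.107 to 0.718).

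The pair of TCRBV19-01 with TCRBJ02-01 also bore on the results for single genes, which was looked at after its values were seen. Without its rearrangements TCRBJ02-01 made up 11.5%, 11.3% and 11.6% of the rest in the CD27hi CX3CR1- cells and 11.1%, 11.5% and 11.7% in the TILs, and its log2 fold change went from 0.21 to -0.0033 (adjusted p = 0.964). Among productive unique rearrangements, the higher use of TCRBJ02-01 in the TILs was thus not seen outside this pair. By template the pair held 17.4%, 2.39% and 6.14% in the TILs, less than the 30.7%, 11.5% and 24.3% of TCRBJ02-01 as a whole. TCRBV19-01 with other J genes was at 6.38% to 6.56% in the spleen and 7.08%, 5.97% and 7.20% in the TILs, where the groups overlapped.

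Within the pair, the CDR3s of the TILs were of a narrower kind than those of the spleen. These values were looked at because the pair had passed, so they are given as a description with no test. CDR3s of 14 residues made up 35.5%, 36.9% and 35.3% of its rearrangements in the CD27hi CX3CR1- cells and 67.7%, 81.8% and 70.0% in the TILs. In the other pairs this length made up 30.2% to 30.6% and 29.2% to 30.9%, so that the excess was seen in the pair and not in the rest of the TIL repertoire. CDR3s of 13 residues made up 20.4% to 24.3% of the pair in the spleen and 6.45%, 7.27% and 8.75% in the TILs. The form CASxxGxxYAEQFF, where x is any residue, was read in 50, 44 and 58 splenic rearrangements of the pair (12.4%, 11.7% and 10.7%) and in 18, 31 and 43 TIL rearrangements (58.1%, 56.4% and 53.8%). The form was itself chosen after its values were seen, so that its high share in the TILs was partly set by that choice. The Wilson intervals, for counting error only, spanned 8.4% to 16% over the splenic libraries and 40.8% to 73.6% over the TILs. In the other pairs the form was rarer but also higher in every TIL library, at 1.06%, 1.27% and 1.83% of rearrangements against 0.678%, 0.585% and 0.751% in the spleen. Its YAEQFF end comes from TCRBJ02-01, which 11.1% to 11.7% of those rearrangements carried in the TILs and 11.3% to 11.6% in the spleen. The form therefore had to be rarer there, and its share among other V genes with TCRBJ02-01 was not computed. In templates, the form in the pair held 0.111%, 0.120% and 0.105% of the CD27hi CX3CR1- libraries and 3.00%, 1.85% and 5.20% of the TILs.

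In the share of the form, the 2 other splenic subsets lay between the CD27hi CX3CR1- cells and the TILs. The form made up 17.1%, 23.8% and 17.9% of the pair's rearrangements in the CD27lo CX3CR1- cells and 36.8%, 38.7% and 28.0% in the CX3CR1+ cells. The pair itself took 1.41% to 1.66% of rearrangements in the CX3CR1+ cells and 0.937% to 0.994% in the CD27lo CX3CR1- cells, where it overlapped with the CD27hi CX3CR1- cells. The order of the 4 groups by the share of the form was the same in all 3 experiments.

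Residues within the 14-residue CDR3s of the pair, counted from 1 at the first cysteine, showed where the TIL sequences were alike. Position 6 was glycine in 85.7%, 71.1% and 78.6% of TIL rearrangements and in 47.6%, 40.3% and 40.8% of splenic ones. Position 5 was proline in 33.3%, 37.8% and 33.9% against 17.3% to 17.5%, and isoleucine in 19%, 13.3% and 14.3% against 28.0% to 34.5%. Position 7 was glutamine in 47.6%, 26.7% and 39.3% against 9.09% to 12.2%. Position 9 was tyrosine, the first residue of the shared YAEQFF end, in 93.3% to 96.4% of TIL rearrangements and 73.3% to 79.9% of splenic ones. The number of N bases did not separate the groups, with means of 3.39, 3.51 and 3.58 in the spleen and 3.74, 3.80 and 3.33 in the TILs.

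**Figure D3:**
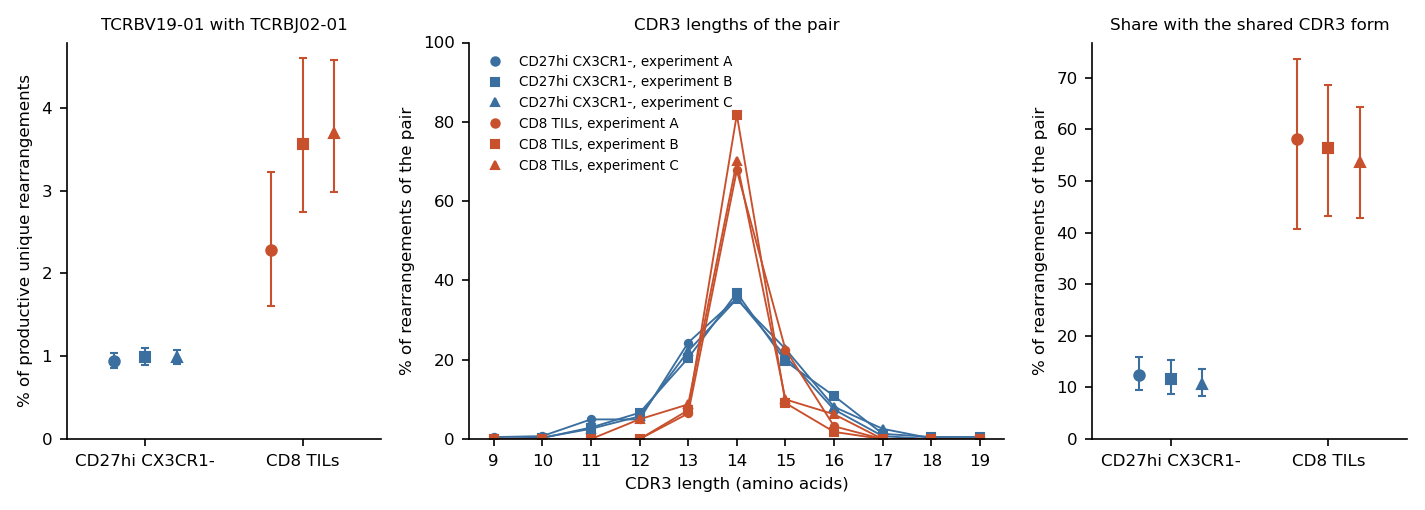
The pair TCRBV19-01 with TCRBJ02-01: its share of productive unique rearrangements (left), the percent of its rearrangements at each CDR3 length (middle) and the percent with the form CASxxGxxYAEQFF (right), with 1 point per library. Bars in the left and right panels are Wilson 95% intervals for counting error, and the TIL points (2.28% to 3.70% and 53.8% to 58.1%) lie above the CD27hi CX3CR1- points (0.947% to 0.993% and 10.7% to 12.4%). The pair and the form were chosen after their values were seen, so the panels are a description.

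Different TIL libraries held the same CDR3s of this pair. Of 125 distinct CDR3 amino acid sequences in the TILs, 14 were found in more than 1 experiment, all of 14 residues. Other pairs had such CDR3s too: 4 of 39 in TCRBV12-01 with TCRBJ02-05 and 3 of 39 in TCRBV05-01 with TCRBJ01-01. TCRBV17-01 with TCRBJ02-02 had 1 of 12, and TCRBV31-01 with TCRBJ02-03 had 0 of 23. The splenic libraries were not counted in this way. In TCRBV19-01 with TCRBJ02-01, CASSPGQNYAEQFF and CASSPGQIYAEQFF were found in all 3 experiments. The most abundant rearrangement that encoded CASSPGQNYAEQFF in each TIL library is shown, as above with the V-J junction in capitals, because the same protein sequence arose from more than 1 nucleotide sequence.
TIL A, 3 templates: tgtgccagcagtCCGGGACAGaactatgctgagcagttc
TIL B, 16 templates: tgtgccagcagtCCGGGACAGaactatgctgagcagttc
TIL C, 314 templates: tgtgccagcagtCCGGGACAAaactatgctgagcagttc
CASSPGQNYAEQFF was encoded by 2, 3 and 7 rearrangements in the TILs of experiments A, B and C, with 4, 25 and 412 templates (0.0679%, 0.202% and 1.97%). They were 8 different nucleotide sequences, 2 of which were in more than 1 TIL library. In the CD27hi CX3CR1- cells the CDR3 was encoded by 0, 4 and 4 rearrangements, with 0, 10 and 13 templates. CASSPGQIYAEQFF held 3, 102 and 1 TIL templates from 4 nucleotide sequences and 1, 3 and 0 templates in the spleen.
TIL A, 3 templates: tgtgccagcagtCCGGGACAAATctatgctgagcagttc
TIL B, 100 templates: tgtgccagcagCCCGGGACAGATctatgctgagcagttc
TIL C, 1 template: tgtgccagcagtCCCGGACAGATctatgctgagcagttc
Those 2 CDR3s were thus small or large clones depending on the experiment. Other CDR3s of the form in 2 TIL libraries included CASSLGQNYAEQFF (67 and 97 templates in experiments A and C), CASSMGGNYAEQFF (15 and 16 in B and C) and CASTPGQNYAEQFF (23 and 59 in A and C). The largest clone of the pair in experiment A, the 15-residue clone of 801 templates, did not have the form.

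Out-of-frame rearrangements encode no receptor, and their V and J use was compared in the same way. None of 25 V genes passed in edgeR (0%), with 2 unadjusted, while 3 of 14 J genes did (21.4%). TCRBJ02-07 was at 18.0%, 18.1% and 18.9% in the CD27hi CX3CR1- cells and 20.6%, 25.7% and 22.3% in the TILs (log2 fold change 0.32, adjusted p = 0.0359), and TCRBJ01-02 and TCRBJ01-03 were lower (-0.46 and -0.61, adjusted p = 0.0359 and 0.0353). In the TILs, 31, 61 and 90 out-of-frame rearrangements (4.94%, 8.93% and 8.68%) differed by an insertion or deletion of 1 base from a productive rearrangement of 20 or more templates, against 0, 3 and 0 in the CD27hi CX3CR1- cells. Without these near-copies no J gene passed (0%; 3 unadjusted) and no V gene (0%; 0 unadjusted). The log2 fold changes of the J genes were then 0.22 for TCRBJ02-07, -0.38 for TCRBJ01-02 and -0.56 for TCRBJ01-03 (adjusted p = 0.189, 0.128 and 0.0617 by edgeR), so that the directions stayed and the last 2 kept most of their size. TCRBJ02-01 did not pass but was also higher out of frame, at 15.0%, 12.2% and 13.1% in the TILs against 11.2%, 10.8% and 10.6%. Its log2 fold change was 0.30, and 0.18 without the near-copies (edgeR adjusted p = 0.0850 and 0.293). The out-of-frame share of all rearrangements was 26.8%, 27.4% and 27.6% in the spleen and 31.3%, 30.2% and 32.0% in the TILs, and 30.2%, 28.3% and 30.1% in the TILs without the near-copies. For TCRBV19-01 with TCRBJ02-01, 8, 10 and 12 out-of-frame TIL rearrangements were left (1.34%, 1.62% and 1.27%, against 0.692% to 0.858% in the spleen), counts too small to bear a comparison of lengths or residues. Among productive rearrangements, those that differed by 1 substitution from a clone at least 20 times as large numbered 0, 0 and 3 in the TILs and 0 in each CD27hi CX3CR1- library.

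V-J pairs weighted by templates gave 48 of 249 past the threshold (19.3%), 4 higher and 44 lower in the TILs. The median log2 fold change over all 249 pairs was -1.51, so that most pairs took a smaller share of TIL templates, and with TMM scaling, which centres the pairs on each other, 4 pairs passed, all higher. Without any 1 of the 3 experiments no pair passed, so that each call below rests on all of them. The higher pairs were TCRBV17-01 with TCRBJ02-02 (0.271%, 0.230% and 0.208% in the spleen against 7.28%, 2.65% and 0.309% in the TILs), TCRBV19-01 with TCRBJ02-01 (0.826%, 0.866% and 0.853% against 17.4%, 2.39% and 6.14%), TCRBV31-01 with TCRBJ02-03 (0.121%, 0.128% and 0.175% against 0.950%, 2.26% and 0.371%) and TCRBV12-01 with TCRBJ02-05 (0.822%, 0.773% and 0.786% against 2.77%, 10.4% and 4.65%). Their log2 fold changes lay between 2.69 and 3.05, with adjusted p from 0.0401 to 0.0435. Single clones held most of the TIL share in several libraries. For TCRBV17-01 with TCRBJ02-02 they held 7.08% in experiment A and 2.599% in B, and for TCRBV12-01 with TCRBJ02-05 2.68% and 7.43%. The 801-template clone held 13.6% in A, and a TCRBV31-01 with TCRBJ02-03 clone 2.18% in B. The largest TCRBV19-01 with TCRBJ02-01 clones held less in B (0.807%) and C (1.499%). The shares of these pairs thus also reflect clone size. In 3 of the 4 pairs a CDR3 was found in all 3 TIL libraries, while TCRBV31-01 with TCRBJ02-03 had no CDR3 in more than 1. In TCRBV12-01 with TCRBJ02-05, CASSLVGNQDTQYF was carried by 1, 5 and 5 TIL rearrangements (158, 1197 and 737 templates) of 10 different nucleotide sequences, and by 2, 7 and 5 rearrangements (31, 29 and 18 templates) in the CD27hi CX3CR1- cells. The related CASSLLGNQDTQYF held 52 and 112 TIL templates in experiments B and C. TCRBV05-01 with TCRBJ01-01, higher by unique rearrangement, held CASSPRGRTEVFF in all 3 TIL libraries (1, 56 and 2 templates) and in the spleen of experiment C (1 template).

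The largest changes past the threshold were all lower and concerned rarely used pairs. TCRBV23-01 with TCRBJ01-05 held 39, 19 and 22 splenic templates and none in the TILs, at least 1.42-fold, 1.60-fold and 1.99-fold lower than the splenic share in experiments A, B and C (3 templates per library; adjusted p = 0.0411 by edgeR). TCRBV30-01 with TCRBJ02-07 held 0.124%, 0.108% and 0.119% of splenic templates against 0, 0 and 2 TIL templates (log2 fold change -4.66, between -8.11 and -4.09 without 1 experiment; adjusted p = 0.0249). TCRBV15-01 with TCRBJ01-04 held 0.189%, 0.192% and 0.165% against 2, 1 and 0 TIL templates (-4.31, between -5.66 and -3.41; adjusted p = 0.0219). TCRBV24-01 with TCRBJ01-04, TCRBV24-01 with TCRBJ01-03 and TCRBV14-01 with TCRBJ01-05 had no TIL template in experiments A and B and 1, 3 and 7 in experiment C (adjusted p = 0.0342, 0.0342 and 0.0312). None of the 6 passed under TMM scaling or in DESeq2.

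CDR3 length differed little between the groups. The mean length was 13.93, 13.94 and 13.95 residues in the CD27hi CX3CR1- cells and 13.96, 13.94 and 13.97 in the TILs (difference 0.018 ± 0.013 residues, SD, n = 3; two-sided exact sign-flip p = 0.25). No length class passed (0%, edgeR; 3 unadjusted, 0 by DESeq2). Lengths of 10 residues were at 0.983%, 1.02% and 1.03% against 1.32%, 1.1% and 1.7% in the TILs, and lengths of 11 and 12 residues were lower in every TIL library, each with an adjusted p of 0.0751. The mean number of N bases was 3.45, 3.44 and 3.53 against 3.42, 3.56 and 3.49, and rearrangements without N bases made up 9.15%, 9.36% and 8.46% against 10.2%, 9.10% and 9.20%. The groups overlapped in both, and the sign of the differences changed with the settings.

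Residues in the central CDR3, leaving out 4 at each end that the V and J segments mostly encode, differed for 4 of 20 amino acids (20%). Aspartate, an acidic residue, made up 8.81%, 8.83% and 8.78% of central residues in the CD27hi CX3CR1- cells and 8.20%, 7.74% and 7.64% in the TILs (log2 fold change -0.17, adjusted p = 0.0131 by edgeR). Tryptophan, a large aromatic residue, was higher at 2.20%, 2.29% and 2.19% against 2.69%, 2.65% and 2.47% (0.22, adjusted p = 0.0184). Methionine was higher at 0.237%, 0.240% and 0.247% against 0.271%, 0.456% and 0.316% (0.52, adjusted p = 0.0198), and lost its call without the pair TCRBV19-01 with TCRBJ02-01 (0.23, adjusted p = 0.611). The groups did not overlap for these 3 residues, as for 9 of the 20 (45%). Cysteine, which can form disulfide bonds, rested on few sequences: 77, 95 and 114 splenic CDR3s had a central cysteine (0.181%, 0.25% and 0.209%) and 1, 11 and 13 TIL CDR3s (0.0736%, 0.710% and 0.598%). It was higher in experiments B and C and not in A (log2 fold change 1.29, adjusted p = 0.0131). Weighted by templates the direction turned, with a central cysteine in 0.171%, 0.242% and 0.194% of splenic templates and 0.0170%, 0.105% and 0.10% of TIL templates. No residue passed without experiment B or without experiment C, and 6 did without experiment A. By DESeq2 only aspartate passed.

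Clones shared between the compartments were then followed within and across experiments. Of the TIL rearrangements, 92 of 1359, 190 of 1550 and 310 of 2173 were found, base for base, in the CD27hi CX3CR1- cells of the same experiment (6.77%, 12.3% and 14.3%). In the CD27hi CX3CR1- cells of the other experiments 1.99% to 2.85% were found. The share from the same experiment exceeded the mean of the others by 8.57 ± 3.62 percentage points (SD, n = 3; higher in 3 of 3 experiments, two-sided exact sign-flip p = 0.25). Weighted by templates, shared clones made up 28.0%, 55.3% and 51.4% of the TILs within experiments and 1.74% to 11.4% across them. With each CD27hi CX3CR1- library brought to 5893 templates, 1.42%, 2.74% and 2.39% were found within experiments and 0.430% to 0.560% across them. The TIL libraries were kept at their full depth in this, so that only the splenic side was equalized.

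Within an experiment, larger TIL clones were found more often than smaller ones, which is given as counts with no test. Of single-template TIL rearrangements 4.30%, 5.68% and 7.87% were found, of those with 2 to 9 templates 8.35%, 14.4% and 16.4%, and of those with 10 to 99 templates 21.1%, 34.4% and 37.8%. Among clones of 100 or more templates, 4 of 9, 20 of 26 and 19 of 36 were found. The order of the 4 classes was the same in the 3 experiments. Across experiments 3.85% to 22.2% of clones of 100 or more templates were found.

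**Figure D4:**
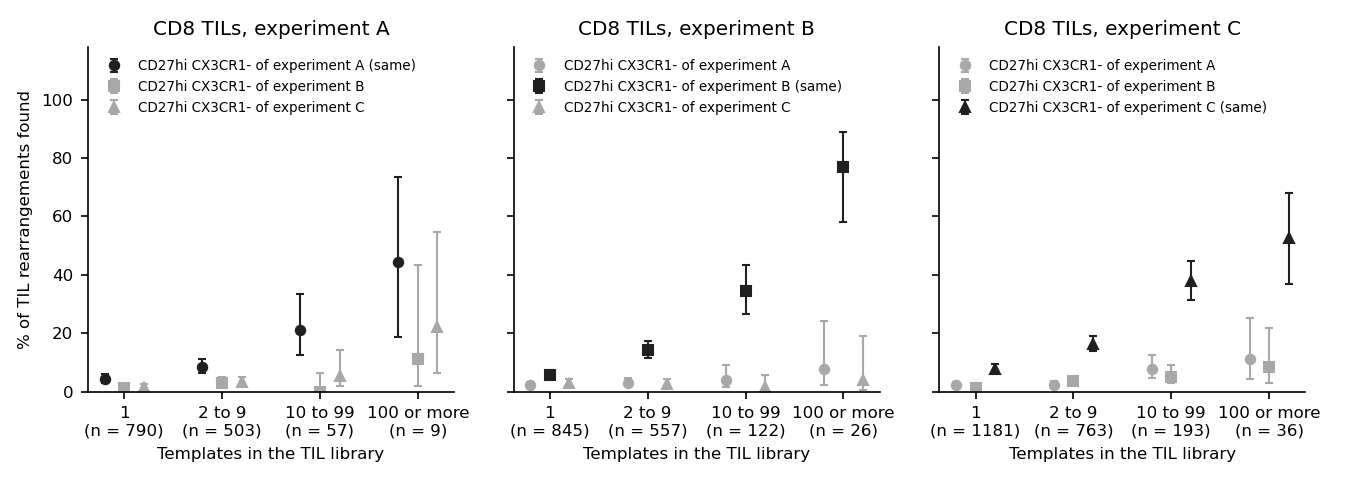
Percent of TIL rearrangements found in a CD27hi CX3CR1- library, by templates in the TIL library (1, 2 to 9, 10 to 99, 100 or more; n is the number of TIL rearrangements), in a panel per TIL library, with bars for Wilson 95% intervals. Black points (same experiment) climb from 4.30% to 7.87% for single templates to between 44.4% and 76.9% for the largest clones, and grey points (other experiments) are lower in every class.

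Rearrangements shared within an experiment were unlike those shared across experiments in how they were made. The TIL rearrangements found in the same experiment carried 2.79, 2.98 and 3.22 N bases on average, and 19.6%, 14.2% and 11.6% had none. Those found in other experiments carried 0.905 to 1.63 N bases, and 35.8% to 52.4% had none. TIL rearrangements that were not found in the same experiment carried 3.47, 3.64 and 3.53. Rearrangements found across experiments thus had few added bases, and those found within an experiment lay closer to the rest of the TILs. At the level of the CDR3 amino acid sequence, 23.0%, 30.6% and 35.9% of TIL rearrangements had their CDR3 in the same experiment's CD27hi CX3CR1- cells and 18.8% to 26.5% in those of another.

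Clones shared with the TILs held a small part of the CD27hi CX3CR1- libraries. Their median size there was 1 template in each experiment, as for all clones, but fewer of them were single templates. They made up 0.216%, 0.50% and 0.567% of CD27hi CX3CR1- rearrangements and 0.415%, 1.03% and 1.03% of templates. Single templates were 54.3%, 54.7% and 50.6% of the shared clones, against 76.6%, 74.2% and 73.2% of all CD27hi CX3CR1- rearrangements. Their share of templates was higher in the TILs for 92 of 92, 188 of 190 and 302 of 310, with median ratios of 9.15, 7.93 and 6.83. These ratios contain the gap in depth: the median template count in the TILs was 1, 2 and 2 times that in the deeper splenic library, and 42, 120 and 182 of the shared clones had more templates in the TILs. Most shared clones were also in the CX3CR1+ cells of the experiment, with 65, 150 and 256 of them (70.7%, 78.9% and 82.6%), against 16.7%, 32.4% and 40.4% of the TIL rearrangements that were not shared. They held 12.7%, 41.9% and 48.8% of CX3CR1+ templates. The 27, 40 and 54 shared clones that were not in the CX3CR1+ cells held 1.00%, 0.686% and 2.14% of TIL templates.

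**Figure D5:**
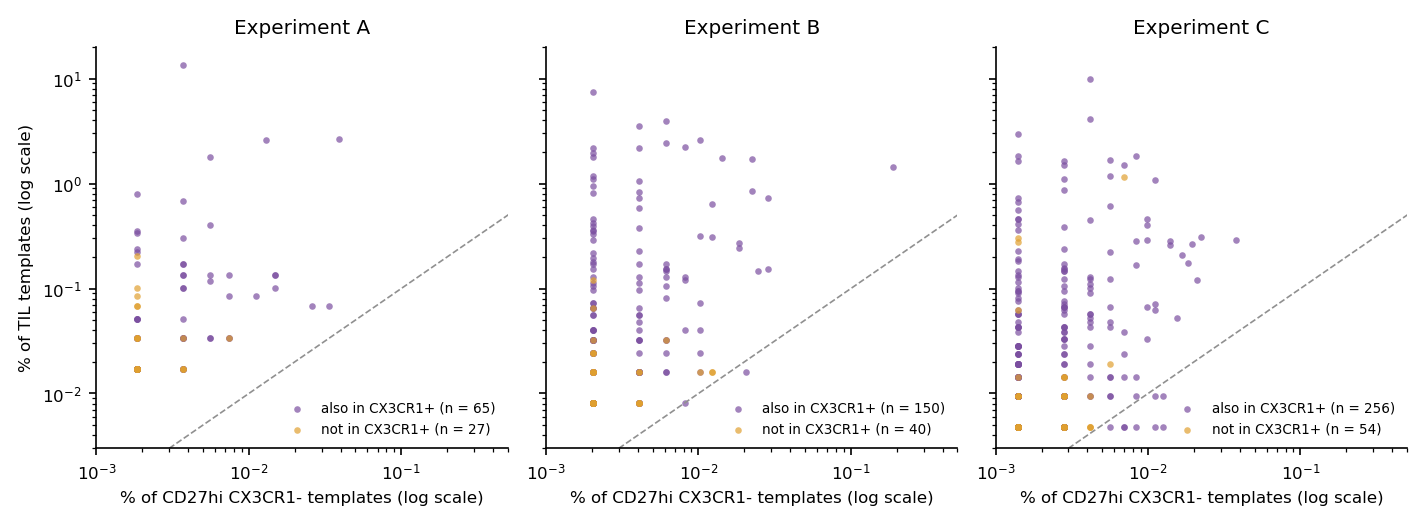
Share of templates in the TILs against the share in the CD27hi CX3CR1- cells of the same experiment, both on log axes, for the 92, 190 and 310 rearrangements found in both libraries. Each point is a clone, colored by whether it was also in the CX3CR1+ cells, the dashed line marks equal shares, and the columns of points at the left are clones of 1, 2 or 3 splenic templates.

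CDR3s held in common by the 3 experiments were fewer in the TILs. In the CD27hi CX3CR1- cells 3035 CDR3 amino acid sequences were in all 3 libraries, carried by 14.6%, 15.7% and 13.4% of rearrangements and 16.5%, 17.5% and 15.5% of templates. In the TILs 24 were, carried by 2.43%, 3.48% and 2.58% of rearrangements but 12.6%, 20.2% and 11.2% of templates. The TILs' common CDR3s thus held several times their share of rearrangements in templates, and those of the spleen about the same share in either count. Of the 24, 11 were in all 6 libraries. The part of the difference in depth in these numbers was not tested.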

How the data were processed

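For 12 libraries the authors amplified rearranged TCRβ genes out of genomic DNA (ImmunoSEQ assay, survey level), sequenced them on a NextSeq system and used the ImmunoSEQ platform to process the output. Aligner versions were not given in the sources used here; the labels name mm10. The deposited template counts are whole numbers without normalization, and the deposited CDR3 lengths, N insertions and gene assignments were used as given. The deposited frequencies were not used, and shares were computed from the counts. The groups come from the labels, and the 6 libraries here held 5893 to 71574 productive templates. No 2 libraries were identical (0 pairs).

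From the counts, V, J and V-J use, CDR3 lengths and central residues were tested with edgeR 4.0.16 (quasi-likelihood F test, R 4.3.3) with experiment as a block, as the paper treated experiments as repeated measures. Library totals set the scale, so that fold changes are ratios of shares. Features with 30 or more counts over the 6 libraries entered (60 for V-J pairs), p-values were adjusted by Benjamini-Hochberg within each family, and the threshold was 0.05. Rearrangements without a single V gene (5) or J gene (133) were left out of the shares concerned. DESeq2 1.42.0 was an alternative. The fits were also run on simulated counts with known changes, drawn with a fixed spread and no difference between experiments. Those counts held no large clones like those of the TILs, so they cannot show how such clones affect the fits by template. Scalars were tested by exact sign flips (scipy 1.17.1). Equal depth is the hypergeometric expectation. All 29 V and 14 J genes of the files matched a RefSeq symbol, and coordinates are those of RefSeq for GRCm38.p6. The experiment codes in the labels pair the libraries. As a check, the deviations from group means were correlated between the libraries of an experiment and gave values between -0.20 and 0.15.

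The members, lists and tests were chosen with earlier results of these data known. Named V, J, length and residue features are those past the threshold, the named pairs are those with the largest changes (up to 6 in each direction by unique rearrangement and 6 by template), and the named clones are the 3 largest of each TIL library, the 2 largest of each CD27hi CX3CR1- library and the 3 shared clones with most templates in the spleen. V genes named without passing, the 4 higher pairs by template, the form CASxxGxxYAEQFF and the near-copies were chosen after their values were seen.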

Additional observations from a re-analysis of the deposited data

How the results depend on the processing

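The pair TCRBV19-01 with TCRBJ02-01 passed under all 13 alternatives, and no other feature named here did. Counts past the threshold moved as follows, main count first. V genes by unique rearrangement went from 1 to 0 under TMM, 3 in DESeq2, 2 without a filter, 4 with no replicate block, 4 with all 12 libraries, 4 at equal depth, 3 with 2 or more templates (TCRBV12-01 not among them) and 0 without the pair TCRBV19-01 with TCRBJ02-01 (added after seeing the data). By template they went from 2 (both lower) to 1 in DESeq2 (a higher gene, neither of the 2), 5 with no replicate block, 5 with all 12 libraries and 1 at equal depth. J genes by unique rearrangement went from 3 to 8 with 2 or more templates, 1 with single templates and 1 with amino acid clonotypes, and by template from 0 to 1 in DESeq2 and 2 with all 12 libraries. V-J pairs by unique rearrangement went from 5 to 1 in DESeq2, 8 with all 12 libraries, 9 at equal depth, 22 with 2 or more templates and 1 with single templates. By template they went from 48 (4 higher) to 4 under TMM (4 higher), 12 in DESeq2 (10 higher), 76 with no replicate block, 97 with all 12 libraries, 24 at equal depth and 21 without the largest clone of every library. Length classes went from 0 to 3 at equal depth and 6 with 2 or more templates, and central residues from 4 to 1 in DESeq2, 2 with no replicate block, 1 with all 12 libraries, 1 at equal depth, 2 with single templates and 2 with 3 residues left out at each end. Leaving out 1 experiment gave 0 to 1 V genes by unique rearrangement and 1 to 4 by template, 0 to 2 J genes by unique rearrangement and 0 by template, 1 to 4 V-J pairs by unique rearrangement and 0 by template, 0 to 2 length classes and 0 to 6 residues. It gave differences of 0.013 to 0.025 residues in mean length, -0.033 to 0.048 in mean N bases (-0.033 without experiment B), 0.238 to 0.909 percentage points in rearrangements without N bases, and 7.04 to 10.6 points in the excess found in the same experiment.

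Signs turned for mean length with single templates (-0.047), for the share without N bases at equal depth (-0.030), with 2 or more templates (-0.853) and weighted by templates (-3.14), for TCRBJ01-02 with 2 or more templates (0.15) and for TCRBJ02-01 without the pair (-0.0033). Of the V and J genes past the threshold by unique rearrangement, TCRBV12-01 (0.075) and TCRBJ01-06 (-0.73) also turned by template. The causes were not tested, except that leaving out the pair removes the rearrangements concerned. The TIL libraries' depth limits every count: 1 template is 0.0170% of the TILs of experiment A and 0.00477% of experiment C.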
